A study of Mus musculus with 12 samples.

Results

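The Slc25 genes code for the mitochondrial carriers, a large family of membrane transporters. They were studied here in RNA bound to the ribosomes of CA1 pyramidal neurons of WT mice and of Fmr1-/y mice, a model of fragile X syndrome that lacks FMRP. The members were all rows of the count table whose gene symbol begins with Slc25a and which held at least 15 reads summed over the 12 libraries. This gave 44 members of 47 such rows, among 17823 genes tested of 24079 in the table. The 3 rows that did not reach 15 reads were Slc25a43 with 14 reads, Slc25a48 with 10 and Slc25a54 with 0, and they are not described further.

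All mice were C57BL/6J adults aged 2 to 6 months and carried Wfs1-CreERT2 and RiboTag, in which Cre driven by the Wfs1 promoter puts an HA tag on the ribosomal protein Rpl22. They received tamoxifen at 100 mg/kg on 3 days and were used 1 week later. The 6 WT and the 6 Fmr1-/y libraries, the latter with the Fmr1 gene knocked out on the X chromosome, were each made from the pooled hippocampi of 4 to 6 mice, so that a p-value measures the spread between pools and not between mice. Tagged ribosomes were immunoprecipitated from the whole hippocampus, so the sample is enriched in Wfs1-expressing cells and still holds RNA of other cells. Fewer ribosomes from a cell type and less ribosome-bound RNA per cell cannot be told apart in such pools.

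Between 39400980 and 55745464 reads per WT library were counted on genes, and between 43106629 and 65565479 per Fmr1-/y library. Fmr1 had 1971 to 2608 reads in WT libraries and was at 0 in 5 of the Fmr1-/y libraries, with a single read in replicate 2. The 8 CA1 pyramidal markers were present in every library (summed level 8635 to 10674 CPM in WT, 8340.0 to 9903 CPM in Fmr1-/y). The 8 astrocyte markers were present too, at 1919 to 2247 CPM in WT and 2079 to 3005 CPM in Fmr1-/y libraries. The 4 choroid plexus markers were at 6347 to 11818 CPM in WT and 8267 to 17421 CPM in Fmr1-/y libraries. Most of this came from Ttr, with a mean of 8323 CPM in WT and 11319 CPM in Fmr1-/y libraries. Reads were given as CPM, a count relative to the total of the library, after correction of the library size by the TMM method. To set one gene beside another, CPM was divided by the length of the gene's exons (CPM per kb).

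Mitochondrial carriers are coded in the nucleus, translated on cytosolic ribosomes and inserted, with few exceptions, into the inner mitochondrial membrane. Each exchanges or takes up a small set of substrates: ADP for ATP, phosphate, amino acids, intermediates of the citric acid cycle, nucleotides, cofactors or metal ions. In neurons they carry the ATP made in mitochondria to the cytosol, bring in phosphate for its synthesis, and move reducing equivalents and glutamate across the membrane.

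The family was dominated by the carriers of ATP synthesis. In WT libraries the level per length was highest for Slc25a4, the adenine nucleotide translocator known from heart and muscle, at 302 ± 29.3 CPM per kb (SD, n = 6). Slc25a3, the phosphate carrier, followed at 231 ± 24.1 CPM per kb. Slc25a5, the adenine nucleotide translocator of many other tissues, stood at 187 ± 12.95 CPM per kb. These 3 genes made up 54.5% of the summed level per length of the family, and the 10 highest members made up 80.3%.

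Next in order came the glutamate carrier Slc25a22 (84.9 CPM per kb), the ATP-Mg/phosphate carrier Slc25a23 (75.8) and the oxoglutarate carrier Slc25a11 (50.2), an exchanger of the malate-aspartate shuttle. Slc25a14, Slc25a51, Slc25a44, Slc25a39, Slc25a12, Slc25a1 and Slc25a25 ran down from 38.01 to 21.7 CPM per kb. They were followed by Slc25a17, Slc25a18, Slc25a46, Slc25a33, Slc25a16 and Slc25a20, from 19.8 to 11.9 CPM per kb. Between 9.27 and 3.34 CPM per kb lay Slc25a28, Slc25a26, Slc25a42, Slc25a38, Slc25a27, Slc25a29, Slc25a36, Slc25a10, Slc25a15 and Slc25a37. Slc25a53, Slc25a35, Slc25a30, Slc25a40, Slc25a13, Slc25a34, Slc25a47, Slc25a45, Slc25a32 and Slc25a24 lay between 3.01 and 0.619 CPM per kb. The last places were held by Slc25a2 (0.175), Slc25a21 (0.1499), Slc25a31 (0.0623) and Slc25a41 (0.0138 CPM per kb).

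Of the 43 neighbouring pairs in this order, 36 had WT ranges that overlapped, so that most single places in the order are not distinguished by these libraries. The 7 steps without overlap lay just after Slc25a4, Slc25a3, Slc25a5, Slc25a23, Slc25a46, Slc25a27 and Slc25a32. The plot of levels by library sets the genotypes side by side, with ranges that overlapped for each of the 44 members.

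**Figure D1:**
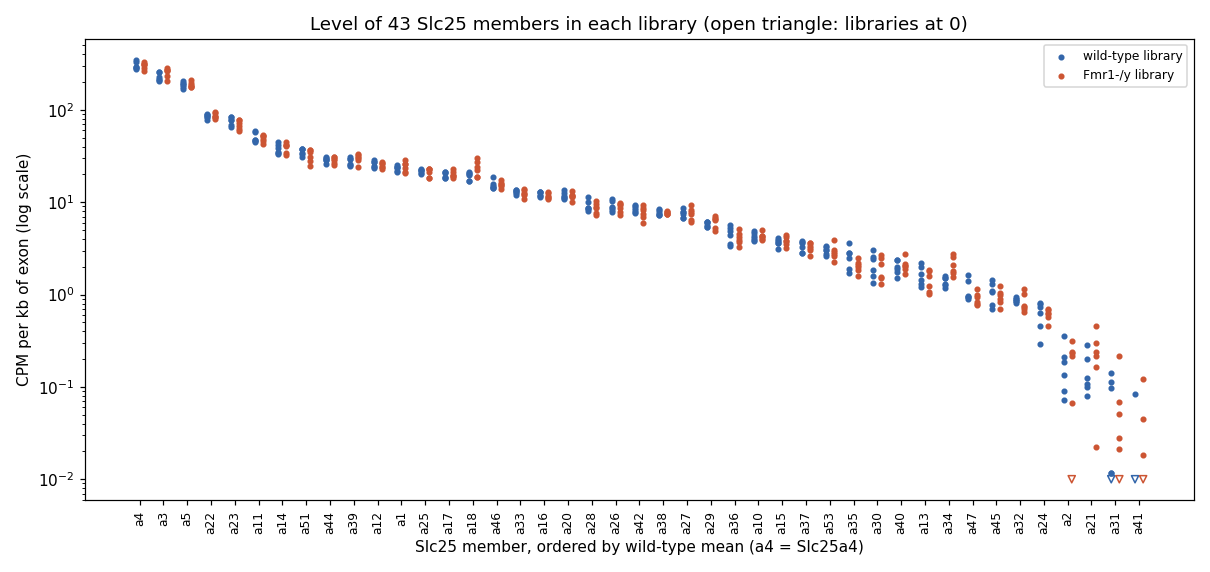
Level of 43 of the 44 members in CPM per kb of exon on a log axis, ordered by the WT mean, with 1 point for each of the 6 WT (blue) and 6 Fmr1-/y (red) libraries; an open triangle marks libraries with 0 reads, placed at the foot of the axis. Slc25a4, Slc25a3 and Slc25a5 stand above the other members, and the ranges of the genotypes overlap for each member shown.

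Slc25a4 and Slc25a5 carry out the same exchange and are close in sequence, so their coding sequences were compared to see how well 50-base reads separate them. Slc25a4 lies at chr8:46207168-46211062 on the minus strand and Slc25a5 at chrX:36795597-36798808 on the plus strand (GRCm38). Each has 894 coding bases in GENCODE M21, of which 692 (77.4%) are identical without a gap. The stretch shown is coding positions 271 to 390, counted from the A of the start codon, which holds the longest identical run. Capitals mark the 25 of 120 bases that differ.
Slc25a4: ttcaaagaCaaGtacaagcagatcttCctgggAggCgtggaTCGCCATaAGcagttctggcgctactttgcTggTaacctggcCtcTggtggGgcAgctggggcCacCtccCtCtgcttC
Slc25a5: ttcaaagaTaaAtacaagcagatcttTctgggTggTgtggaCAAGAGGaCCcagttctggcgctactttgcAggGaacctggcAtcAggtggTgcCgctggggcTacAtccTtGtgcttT
The longest run without a difference was 20 bases, at positions 322 to 341, and no 50-base sequence of Slc25a4 occurred in another annotated gene. In contrast, 555 of the 1191 50-base sequences in the exons of Slc25a5 (46.6%) were also found in the exons of 9 other annotated genes, led by Gm5560, Gm5529 and Gm5256. Reads from these parts can map to more than 1 place, and how the counting treated them was not tested. The level of Slc25a5 is therefore uncertain. So are its place below Slc25a4 and Slc25a3, its ratio to Slc25a4 and the shares of the family level given above. Of the 44 members, 26 shared no 50-base sequence with another gene, and 4 shared over 10%: Slc25a5, Slc25a33 (12.6%), Slc25a36 (11.8%) and Slc25a40 (10.1%). The search covered both strands and did not leave out genes that overlap a member at the same place. A shared sequence is therefore not always one that maps to more than 1 place.

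The comparison of genotypes asked whether ribosome-bound mRNA of any carrier differed in the absence of FMRP. By the quasi-likelihood test of edgeR, adjusted over all genes by Benjamini and Hochberg's method, no member had an adjusted p under 0.05, where 4 genes, or 0.0224% of those tested, did. The adjusted p of the members ran from 0.290 to 0.999. At an unadjusted p under 0.05, 2 members were higher in Fmr1-/y libraries (4.55% of members, beside 4.29% of all genes tested) and 0 were lower (beside 3.67% of all genes). The share that was higher is near that of all genes and is not a result about the carriers. With DESeq2, 84 genes (0.471%) passed and again 0 members, the smallest adjusted p being 0.0549 for Slc25a34, and 3 members (Slc25a2, Slc25a31 and Slc25a41) were given no adjusted p. With limma voom 0 members passed. At an unadjusted p under 0.05 in that fit, 2 members were higher (beside 3.54% of all genes) and 0 lower (beside 4.35%). Without scaling beyond the total counts, the unadjusted calls over all genes were 987 higher (5.54%) and 494 lower (2.77%) in place of 764 and 654. In that setting 3 members were higher and 0 lower.

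The log2 fold change was above 0 for 20 members and below 0 for 24, with a median of -0.015 beside 0.0042 over all genes. Its median size, whatever the sign, was 0.057 for the members and 0.10 for all genes tested. For 38 of the 44 members it was under 0.2 in size. Of the 29 members above 10 CPM in WT libraries, 28 had a 95% interval that lay within 0.5 of 0 on the log2 scale, and the remaining one, Slc25a18, reached 0.52. The widest intervals were those of the 4 members under 1 CPM. There were 0 members whose CPM did not overlap between genotypes, beside 0.623% of all genes.

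**Figure D2:**
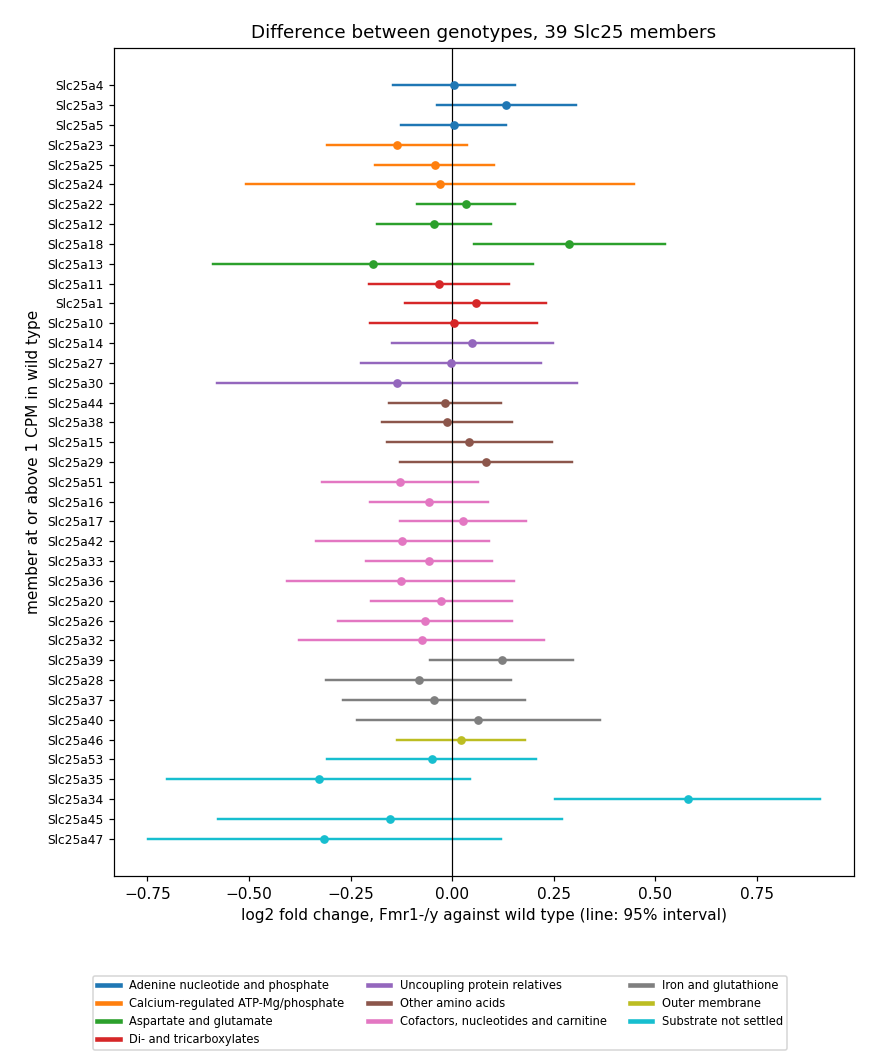
Log2 fold change (Fmr1-/y against WT, positive when higher in Fmr1-/y) of 39 members at or above 1 CPM in WT libraries, each point with its 95% interval, coloured by the substrates of the carrier. The intervals of Slc25a18 and Slc25a34 lie above 0 and those of the other 37 members shown include 0.

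The summed level of the family was 2831 to 3035 CPM in WT libraries (median 2899) and 2816 to 3071 CPM in Fmr1-/y libraries (median 2912). The members held 0.286% to 0.293% of the reads of WT libraries and 0.283% to 0.306% of those of Fmr1-/y libraries. On both measures the ranges of the genotypes overlapped.

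Among the carriers of adenine nucleotides and phosphate, all 4 log2 fold changes were above 0 and 0 passed either threshold. Their summed level ran from 1090.1 to 1347 CPM in WT and from 1072 to 1331 CPM in Fmr1-/y libraries. Slc25a4 measured 532 to 671 CPM in WT libraries (median 556) and 514 to 638 CPM in Fmr1-/y libraries (median 598). The ranges overlapped almost entirely (log2 fold change 0.0049 ± 0.071 (SE), unadjusted p = 0.946, adjusted p = 0.997; 95% interval -0.14 to 0.15). Slc25a3, which imports the phosphate that ATP synthase uses, measured 334 to 419 CPM in WT libraries (median 357) and 333 to 453 CPM in Fmr1-/y libraries (median 427). The 6 Fmr1-/y libraries spanned the WT range and reached above it (log2 fold change 0.13 ± 0.082 (SE), unadjusted p = 0.1199, adjusted p = 0.743). Its unadjusted p was 0.0223 without Fmr1-/y replicate 4, the lowest library, and 0.0351 without scaling beyond the total counts. Slc25a5 gave a log2 fold change of 0.0033. Slc25a31, the translocator of the germ line, was close to the limit of detection: it had 79 reads in all, with reads in 5 libraries of each genotype.

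The carriers of aspartate and glutamate comprised 4 members, 2 with a positive and 2 with a negative log2 fold change, of which only Slc25a18 had an unadjusted p under 0.05. Slc25a22, the main mitochondrial glutamate carrier, measured 225 to 259 CPM in WT libraries (median 245) and 229 to 272 CPM in Fmr1-/y libraries (median 245). Its ranges overlapped (log2 fold change 0.034 ± 0.057 (SE), unadjusted p = 0.561, adjusted p = 0.942). Slc25a12, the aspartate/glutamate exchanger of neurons and muscle, and its liver form Slc25a13 had log2 fold changes of -0.044 and -0.20. Slc25a18 (chr6:120773504-120794169, plus strand, GRCm38) is the other glutamate carrier, which in brain is known from astrocytes. It measured 32.4 to 40.2 CPM in WT libraries (median 38.2) and 35.5 to 58.02 CPM in Fmr1-/y libraries (median 44.4). In 4 of the 6 Fmr1-/y libraries it lay above every WT library, while Fmr1-/y replicates 3 and 6 lay inside the WT range. Its mean was 36.9 ± 3.397 CPM in WT and 45.02 ± 8.86 CPM in Fmr1-/y libraries (mean ± SD of 6 pools; log2 fold change 0.29 ± 0.11 (SE), unadjusted p = 0.0188, adjusted p = 0.499). Leaving out Fmr1-/y replicate 1, the library in which it was highest, gave a log2 fold change of 0.20 and an unadjusted p of 0.0616.

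Slc25a34 (chr4:141618819-141623891, minus strand, GRCm38), a carrier whose substrate is not settled, had the smallest p of the family. It measured 3.12 to 4.25 CPM in WT libraries (median 3.73) and 4.17 to 7.29 CPM in Fmr1-/y libraries (median 5.16). In 5 of the 6 Fmr1-/y libraries it lay above every WT library, and Fmr1-/y replicate 3 (4.17 CPM) lay below WT replicate 6 only (4.25 CPM). The mean was 3.703 ± 0.451 CPM in WT and 5.53 ± 1.28 CPM in Fmr1-/y libraries (mean ± SD of 6 pools), a 1.49-fold difference with a 95% interval of 1.19 to 1.87 (log2 fold change 0.58 ± 0.15 (SE), unadjusted p = 0.00156, adjusted p = 0.2896). Over the alternative fits and left-out libraries its log2 fold change stayed between 0.29 and 0.65 and its adjusted p between 0.0549 and 0.935. It is a weakly expressed gene, with 123 to 216 reads in WT and 185 to 370 in Fmr1-/y libraries.

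Slc25a18 and Slc25a34 were highest in the same libraries. Both had their 2 highest values in Fmr1-/y replicates 1 and 2, and both had their lowest Fmr1-/y value in replicate 3 and their lowest WT value in replicate 5. The summed level of the 8 astrocyte markers followed that order at its ends: 3005 CPM in Fmr1-/y replicate 1, 2754 in Fmr1-/y replicate 2, 2079 in Fmr1-/y replicate 3 and 1919 in WT replicate 5. Between the ends it did not. Fmr1-/y replicate 4 had more of the markers than Fmr1-/y replicate 5 (2533 against 2401 CPM) and less of both genes. Fmr1-/y replicate 6 had 2273 CPM of the markers, above every WT library, while its Slc25a18 lay inside the WT range. The mean log2 CPM of the 8 markers was 0.21 higher in Fmr1-/y libraries (two-sided exact permutation test, p = 0.0303; 0.136 after Benjamini-Hochberg adjustment over 9 marker lists). All 8 had a positive log2 fold change, 5 had an unadjusted p under 0.05, 0 passed after adjustment and none was at 0 reads. With the astrocyte score as a covariate, a fit chosen after the data were seen, the log2 fold change was 0.018 (unadjusted p = 0.846) for Slc25a18 and 0.29 (unadjusted p = 0.0831) for Slc25a34. With a score over astrocyte, oligodendrocyte, microglia and endothelial markers it was 0.15 and 0.44 (unadjusted p = 0.149 and 0.0132). Both scores hold the astrocyte markers, whose mean was itself higher in Fmr1-/y libraries. These fits thus cannot separate a marker score from genotype, and a cause was not tested.

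**Figure D3:**
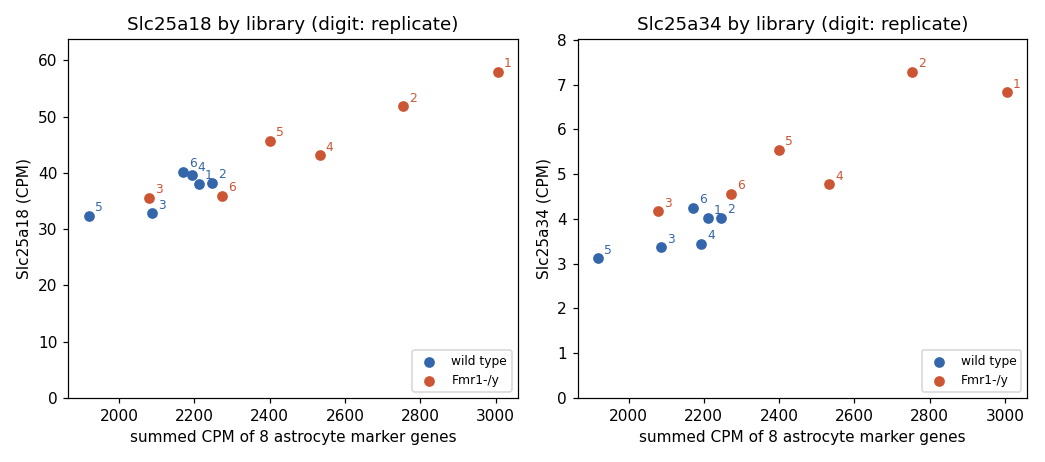
CPM of Slc25a18 (left) and Slc25a34 (right) in each of the 12 libraries against the summed CPM of 8 astrocyte marker genes in the same library, with the replicate number beside each point (WT blue, Fmr1-/y red). Fmr1-/y replicates 1 and 2 lie highest on both axes in both panels, at 3005 and 2754 CPM of astrocyte markers.

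Other marker lists were compared in the same way, and none passed after adjustment. The mean log2 CPM was 0.35 higher in Fmr1-/y libraries for 5 endothelial markers (exact permutation test, p = 0.0346), 0.13 higher for 3 CA2 markers (p = 0.0455), 0.41 higher for 4 choroid plexus markers (p = 0.0736), and differed by -0.13 for 8 CA1 pyramidal markers (p = 0.0909), each with an adjusted p of 0.136. Of the 5 endothelial markers, 5 had a positive log2 fold change and 4 an unadjusted p under 0.05. Of the CA2 markers, Pcp4 had a log2 fold change of 0.42, with -0.020 for Rgs14 and 0.019 for Amigo2. Of the 8 CA1 markers, 0 had a positive log2 fold change and 3 were lower at an unadjusted p under 0.05, among them Wfs1, the gene whose promoter drives Cre (-0.27, unadjusted p = 0.00827). The difference was -0.18 for 4 dentate granule cell markers (p = 0.0866), -0.12 for 6 oligodendrocyte markers (p = 0.351), -0.026 for 7 interneuron markers (p = 0.851) and -0.013 for 6 microglia markers (p = 0.879) by the same exact test. Their part in the values of Slc25a18, Slc25a34 and the other carriers was not tested beyond these scores.

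The regions before a start of both genes are shown beside that of Slc25a4, because Slc25a18 and Slc25a34 were the members with an unadjusted p under 0.05 and had their highest values in the same libraries. Each is the 200 bases before 1 RefSeq start of the gene (GRCm38.p6), written 5′ to 3′ along the gene, with every CG pair in capitals. The regions are chr8:46211063-46211262, minus strand, for Slc25a4, chr6:120773568-120773767, plus strand, for Slc25a18 and chr4:141623835-141624034, minus strand, for Slc25a34. The gene spans given above for Slc25a18 and Slc25a34 start further upstream. The whole window of Slc25a18 and the end of that of Slc25a34 therefore lie within these spans.
Slc25a4: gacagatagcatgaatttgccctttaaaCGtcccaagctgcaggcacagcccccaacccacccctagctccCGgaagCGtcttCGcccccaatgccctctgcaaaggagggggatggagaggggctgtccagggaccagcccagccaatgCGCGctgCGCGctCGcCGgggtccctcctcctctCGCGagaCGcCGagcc
Slc25a18: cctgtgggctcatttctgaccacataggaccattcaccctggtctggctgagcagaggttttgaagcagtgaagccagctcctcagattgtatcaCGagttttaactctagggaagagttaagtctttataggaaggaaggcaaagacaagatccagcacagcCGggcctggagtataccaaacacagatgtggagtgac
Slc25a34: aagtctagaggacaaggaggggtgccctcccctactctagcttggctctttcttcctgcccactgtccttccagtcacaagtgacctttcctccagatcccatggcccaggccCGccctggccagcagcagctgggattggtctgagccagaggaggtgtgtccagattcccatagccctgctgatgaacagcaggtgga
The region of Slc25a4 holds 14 CG pairs, that of Slc25a18 holds 2 and that of Slc25a34 holds 1. The same region, not shown, holds 12 in Slc25a5 and 18 in Slc25a31, which was close to the limit of detection. Over the full promoter windows of 300 bases, which were at hand for 33 of the 44 members, the median was 18 CG pairs, as over the 13825 genes tested that had such a window. Slc25a34, Slc25a18 and Slc25a21 had at most 4 pairs (9.1% of the 33 members), and 12.2% of all genes did. A link between CG pairs and the levels in these libraries was not tested.

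The ATP-Mg/phosphate carriers set the adenine nucleotide content of the matrix. Of the 4 members, 3 had a log2 fold change below 0, and the one above 0, Slc25a41, had 15 reads in all. Slc25a23, the form known from brain, measured 218 to 279.9 CPM in WT libraries (median 261) and 197 to 262 CPM in Fmr1-/y libraries (median 233). The ranges overlapped, with Fmr1-/y replicates 1 and 5 below every WT library (log2 fold change -0.14 ± 0.082 (SE), unadjusted p = 0.117, adjusted p = 0.741). With WT replicate 1 left out, its unadjusted p was 0.0411 and its adjusted p 0.598 in the same test. Slc25a25 and Slc25a24 had log2 fold changes of -0.043 and -0.031.

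The carriers of di- and tricarboxylates link the citric acid cycle to the cytosol. Slc25a11 measured 76.8 to 100.1 CPM in WT libraries (median 80.5) and 73.3 to 91.8 CPM in Fmr1-/y libraries (median 85.4). WT replicates 1 and 6 lay highest, and the ranges overlapped (log2 fold change -0.032 ± 0.082 (SE), unadjusted p = 0.699, adjusted p = 0.962). The citrate carrier Slc25a1, the dicarboxylate carrier Slc25a10 and the oxodicarboxylate carrier Slc25a21 had log2 fold changes of 0.058, 0.0033 and 0.63. The last rests on 300 reads in all, with 4 reads in Fmr1-/y replicate 5 and 68 in Fmr1-/y replicate 1, and its 95% interval was -0.44 to 1.71.

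The relatives of the uncoupling proteins that carry an Slc25 symbol were led by Slc25a14, which is known from brain. It measured 60.5 to 82.3 CPM in WT libraries (median 66.8) and 58.7 to 82.3 CPM in Fmr1-/y libraries (median 74.1). Its ranges overlapped (log2 fold change 0.050 ± 0.094 (SE), unadjusted p = 0.604, adjusted p = 0.947). Slc25a27, also known from neurons, had a log2 fold change of -0.0030, and Slc25a30 one of -0.14 with a 95% interval of -0.58 to 0.31.

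Of 5 carriers of other amino acids, 3 lay above 0 and 2 below. Slc25a44, which takes up branched-chain amino acids, measured 92.4 to 111 CPM in WT libraries (median 104) and 89.7 to 112 CPM in Fmr1-/y libraries (median 104). Its ranges overlapped (log2 fold change -0.018 ± 0.066 (SE), unadjusted p = 0.786, adjusted p = 0.976). The glycine carrier Slc25a38, the basic amino acid carrier Slc25a29 and the ornithine carriers Slc25a15 and Slc25a2 ran from -0.013 to 0.083 in log2 fold change. The weaker of the ornithine carriers, Slc25a2, had 140 reads in all.

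The 10 carriers of cofactors, nucleotides and carnitine gave 2 positive and 8 negative log2 fold changes, with 0 at an unadjusted p under 0.05. Slc25a51, which brings NAD into mitochondria, was the highest of them and measured 136 to 167 CPM in WT libraries (median 158) and 111 to 163 CPM in Fmr1-/y libraries (median 147). Fmr1-/y replicates 1 and 5 lay below every WT library and the other 4 inside the WT range (log2 fold change -0.13 ± 0.091 (SE), unadjusted p = 0.177, adjusted p = 0.802). Without Fmr1-/y replicate 5 the log2 fold change was -0.066 (unadjusted p = 0.427). Slc25a17, the carrier of peroxisomal cofactors, was a positive case, at 0.026. The negative cases were those of coenzyme A (Slc25a16 at -0.057 and Slc25a42 at -0.12), pyrimidine nucleotides (Slc25a33 at -0.056 and Slc25a36 at -0.13), carnitine (Slc25a20 at -0.027), S-adenosylmethionine (Slc25a26 at -0.066) and folate or FAD (Slc25a32 at -0.075).

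Iron enters mitochondria through the mitoferrins Slc25a37 and Slc25a28, and glutathione through Slc25a39 and Slc25a40. The highest of these 4 was Slc25a39, at 41.5 to 52.6 CPM in WT libraries (median 46.8) and 41.01 to 56.1 CPM in Fmr1-/y libraries (median 51.8). The ranges overlapped, and Fmr1-/y replicate 5 was the lowest of all 12 libraries (log2 fold change 0.12 ± 0.084 (SE), unadjusted p = 0.165, adjusted p = 0.793). Without that library its unadjusted p was 0.0311 and its adjusted p 0.647. The log2 fold changes of Slc25a28, Slc25a37 and Slc25a40 were -0.082, -0.044 and 0.064.

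Slc25a46 stands apart in the family as a protein of the outer membrane that acts on the shape of mitochondria. It measured 61.9 to 81.4 CPM in WT libraries (median 65.1) and 61.5 to 76.9 CPM in Fmr1-/y libraries (median 68.2). Its ranges overlapped (log2 fold change 0.021 ± 0.074 (SE), unadjusted p = 0.776, adjusted p = 0.975). The other carriers with no settled substrate were Slc25a53, Slc25a35, Slc25a47 and Slc25a45, all 4 with a log2 fold change below 0.

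Slc25a53, the highest of these, measured 8.57 to 10.97 CPM in WT libraries (median 9.88) and 7.38 to 12.7 CPM in Fmr1-/y libraries (median 9.18). Its ranges overlapped (log2 fold change -0.050 ± 0.12 (SE), unadjusted p = 0.684, adjusted p = 0.9605). Slc25a35 had the smallest p among members with a negative log2 fold change and measured 3.12 to 6.68 CPM in WT libraries (median 4.84) and 2.93 to 4.58 CPM in Fmr1-/y libraries (median 3.73). WT replicates 1, 3 and 6 lay inside the Fmr1-/y range and the other 3 WT libraries above it (log2 fold change -0.33 ± 0.18 (SE), unadjusted p = 0.0799, adjusted p = 0.694). Its unadjusted p was under 0.05 when WT replicate 1, WT replicate 6 or Fmr1-/y replicate 3 was left out (0.0366, 0.0239 and 0.0482), with an adjusted p of 0.5202 to 0.583. Without WT replicate 2, in which it was highest, the log2 fold change was -0.199 (unadjusted p = 0.2602). Slc25a47 measured 1.42 to 2.598 CPM in WT libraries (median 1.51) and 1.23 to 1.81 CPM in Fmr1-/y libraries (median 1.397), and WT replicates 4 and 6 lay above all other libraries (log2 fold change -0.31 ± 0.21 (SE), unadjusted p = 0.145, adjusted p = 0.774). Without WT replicate 6 its log2 fold change was -0.18 (unadjusted p = 0.386). Slc25a45 had a log2 fold change of -0.15.

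Related carriers were also compared within each library, as a ratio of CPM per kb that does not depend on the scaling between libraries. The ratio of Slc25a4 to Slc25a5 was 1.41 to 1.73 in WT libraries (median 1.64) and 1.46 to 1.77 in Fmr1-/y libraries (median 1.65), with the limit on Slc25a5 given above. The ratio of Slc25a12 to Slc25a13 was 10.6 to 20.9 in WT libraries (median 17.4) and 12.3 to 27.1 in Fmr1-/y libraries (median 17.3), and the ranges of both pairs overlapped. The glutamate carriers Slc25a22 and Slc25a18 stood in a ratio of 4.02 to 5.33 in WT libraries (median 4.28) and 2.62 to 4.93 in Fmr1-/y libraries (median 3.64). It was lowest in Fmr1-/y replicate 1, and the ranges overlapped.

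The ratio of Slc25a23 to Slc25a25 was 3.11 to 3.77 in WT libraries (median 3.45) and 3.16 to 3.41 in Fmr1-/y libraries (median 3.25), and that of the mitoferrins Slc25a28 to Slc25a37 was 2.26 to 3.57 in WT libraries (median 2.71) and 2.096 to 2.98 in Fmr1-/y libraries (median 2.82). The ratio of Slc25a39 to Slc25a40 was 10.8 to 19.5 in WT libraries (median 14.3) and 8.896 to 17.2 in Fmr1-/y libraries (median 16.2), and that of Slc25a14 to Slc25a27 was 4.08 to 6.78 in WT libraries (median 4.71) and 3.47 to 6.98 in Fmr1-/y libraries (median 5.71). In each of the 7 pairs the carrier with the higher measured CPM per kb was the same in all 12 libraries, and the ranges of the genotypes overlapped.

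**Figure D4:**
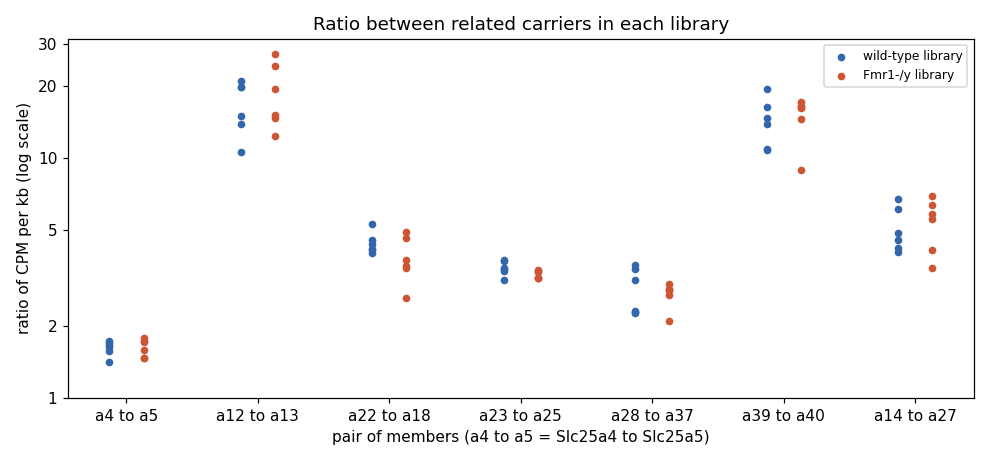
Ratio of the CPM per kb of 2 related carriers within each library on a log axis, for 7 pairs, with 1 point for each WT (blue) and Fmr1-/y (red) library. All ratios are above 1 and the genotypes overlap in each pair, from 1.41 to 1.77 for Slc25a4 to Slc25a5 and up to 27.1 for Slc25a12 to Slc25a13.

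Part of the spread among libraries was shared by carriers, with unequal weights. The coefficient of variation over the 6 libraries had a median of 9.6% in WT (4.5% to 33.5%) and of 11.8% in Fmr1-/y (3.6% to 29.3%) for the 39 members with over 100 reads per library on average. When the mean of each genotype was taken out of the log2 CPM of these 39 members, the first principal component held 44.2% of the remaining variance and the second 15.4%. On the first, 18 members lay on the side of Slc25a3 and 21 on the other. Slc25a14, Slc25a34, Slc25a3, Slc25a11 and Slc25a4 had the highest loadings (0.20 for Slc25a14). Slc25a30, Slc25a36, Slc25a35 and Slc25a45 had the lowest, from -0.49 to -0.25, which were also the largest in size. Their coefficients of variation in WT were 30.4%, 20.4%, 27.6% and 27.4%. These variable members thus weigh most in the share held by the component.

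WT replicates 1 and 6 lay at one end, at 1.13 and 1.14 on the log2 scale of the component, and WT replicate 4, Fmr1-/y replicate 3 and Fmr1-/y replicate 4 at the other, at -0.98, -0.97 and -0.93. Slc25a3 was 419 CPM in both WT replicates 1 and 6 and 345 CPM in WT replicate 4. Slc25a36 was 17.7 and 18.6 CPM in WT replicates 1 and 6 and 27.5 CPM in WT replicate 4. The positions on the component are deviations from the mean of the library's own genotype and do not compare WT levels with Fmr1-/y levels. Among the Fmr1-/y libraries replicate 5 lay highest, at 0.75. The median exon length was 1924 bases for the members on the side of Slc25a3 and 3256 bases for those on the other side, a difference across genes that is given as a description, since genes are not independent replicates. The lane on which each library was run is not given in the sources used here, and the part of the lane or of RNA quality in this spread was not tested.

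**Figure D5:**
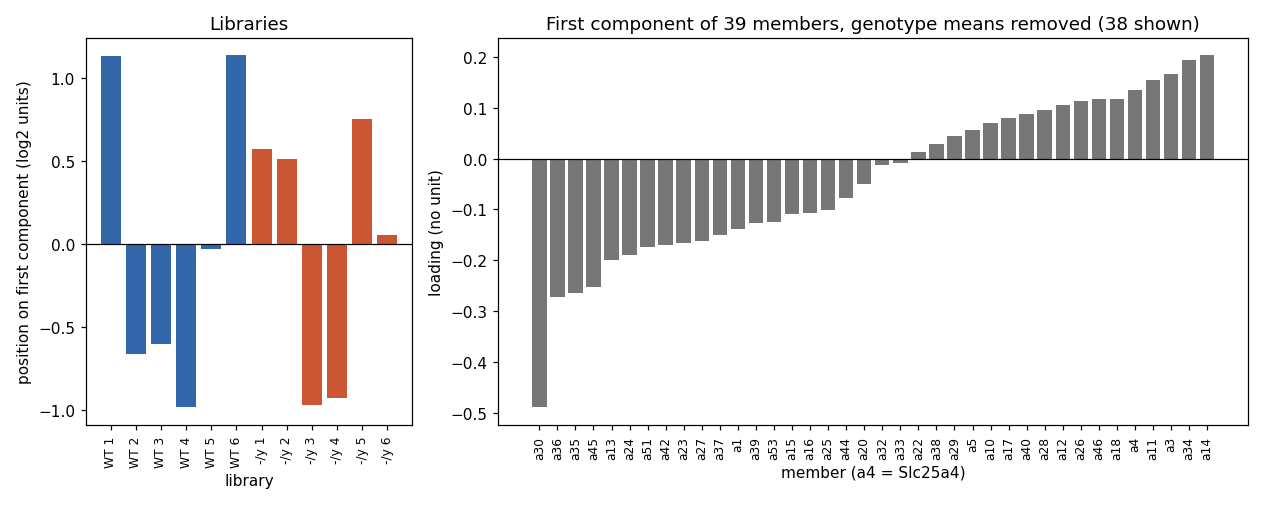
First principal component of the log2 CPM of 39 members after the mean of each genotype was removed, with the position of each of the 12 libraries at left (WT blue, Fmr1-/y red, log2 units) and the loadings of 38 of the members at right. WT replicates 1 and 6 lie highest (1.13 and 1.14), and Slc25a14 and Slc25a30 have the highest and the lowest loading.

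Genes that work beside the carriers were read from the same fit, as 7 lists with 40 genes tested: the pyruvate carrier, the outer membrane channels, the calcium uniporter, the import machinery of carriers, carriers with other symbols, sideroflexins and the enzymes of the malate-aspartate and glycerol phosphate shuttles. Of these, 26 had a positive and 14 a negative log2 fold change, and at an unadjusted p under 0.05 there were 4 higher (10%, beside 4.29% of all genes) and 1 lower (2.5%, beside 3.67%). After adjustment 0 passed. Those higher in mean were Sfxn5, a sideroflexin (133 ± 11.4 against 156 ± 20.1 CPM, log2 fold change 0.23, unadjusted p = 0.0127), Mpc1, a subunit of the pyruvate carrier (58.8 ± 4.11 against 66.04 ± 4.28 CPM, log2 fold change 0.17, unadjusted p = 0.0188), Ucp3 (1.33 ± 0.233 against 1.91 ± 0.493 CPM, log2 fold change 0.52, unadjusted p = 0.0283) and Ucp2 (34.5 ± 5.56 against 41.4 ± 8.45 CPM, log2 fold change 0.26, unadjusted p = 0.0493), both uncoupling proteins. The one lower in mean was Gpd2, the mitochondrial glycerol phosphate dehydrogenase (163 ± 7.43 against 146 ± 12.7 CPM, log2 fold change -0.16, unadjusted p = 0.02196).

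The import machinery, through which every carrier of the inner membrane must pass, gave 6 positive and 6 negative log2 fold changes among 12 genes and 0 at an unadjusted p under 0.05. Tomm20, the gene of this list with the highest CPM (not set per length), had a log2 fold change of -0.013. For the genes of other lists with the highest CPM it was 0.0060 for the channel Vdac1, 0.0023 for Letm1 of the calcium list, -0.0090 for the carrier homolog Mtch1 and 0.10 for the malate dehydrogenase Mdh1. The lists, like the members, describe these 12 libraries, and no list was tested as a set.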

How the data were processed

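The authors aligned single 50-cycle reads of stranded polyadenylated RNA to mm10 with TopHat2 2.1.1 and Bowtie2 2.2.8, dropped alignments with over 3 mismatches, and counted reads on the opposite strand of UCSC gene models with HTSeq 0.6.1p1 in union mode. The deposited values are raw counts, and 4 libraries shared each lane. Genes under 15 reads in total were removed, a filter the study also used. Genotypes were compared with edgeR 4.0.16 in R 4.3.3 (TMM scaling, quasi-likelihood test, no block, Benjamini-Hochberg adjustment over all genes), a script tested on simulated data. The standard error is the size of the log2 fold change over the square root of F. DESeq2 1.42.0, limma 3.58.1 voom, other scalings and filters, a replicate block, marker scores as covariates and each library left out were alternatives.

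Replicate numbers come from the labels. Exon lengths are those of GENCODE M21 and promoters those of RefSeq, on GRCm38, which is the build mm10. The values of 1 member are not reported here, and it stays in all counts over the family. Full statistics are given for members at an unadjusted p under 0.05, the 4 with the smallest p in each direction, and the highest of each group. Members and lists were chosen with earlier results of these data known. The test of a marker score was an exact permutation over libraries, on 2 sides.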

Additional observations from a re-analysis of the deposited data

Results flagged for a closer look

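In 4 of the 88 sets of 6 libraries that were searched (44 members in each genotype), 1 library lay far from the rest by Dixon's ratio, the gap to the nearest other library over the whole range. Chance marks about 1 in 20 such sets, which is 4.4 here. Slc25a31 was at 0.461 CPM in Fmr1-/y replicate 1 and at 0 to 0.146 CPM in the other Fmr1-/y libraries (ratio 0.684). Slc25a41 was at 0.101 CPM in WT replicate 5 and at 0 in the other WT libraries (ratio 1.0), and at 0.151 CPM in Fmr1-/y replicate 6 with 0 to 0.0554 CPM in the others (ratio 0.633). Both genes had few reads, 79 and 15 in all. Where all other libraries are at 0, as for Slc25a41 in WT, the ratio is 1.0 whatever the value. The chance rate given above does not hold for such sets with zeros. Slc25a46, a well-measured gene, was at 81.4 CPM in WT replicate 6 and at 61.9 to 68.4 CPM in the other WT libraries (ratio 0.670).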

How the results depend on the processing

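No member passed an adjusted p of 0.05 under any alternative, and the members' median log2 fold change moved by less than 0.040, the spread of the libraries' medians. Over all genes 4 passed in edgeR's quasi-likelihood test, and 84 in DESeq2, 1 with a filter of 10 reads in every library, 2 with the astrocyte score as a covariate (chosen after the data were seen) and 2 to 6 with 1 library left out. Members higher at an unadjusted p under 0.05 numbered 2, and 1 with the non-neuronal score, 0 with the astrocyte score and 1 to 4 with 1 library left out (1 without Fmr1-/y replicate 1, 4 without Fmr1-/y replicate 5). All genes higher were then 2.94%, 2.55%, 3.12% and 3.84% with the non-neuronal score, the astrocyte score and without these 2 libraries, beside 4.29%. Members lower numbered 0, and 0 to 2 with 1 library left out (2 without WT replicate 1, 1 without WT replicate 6 or Fmr1-/y replicate 3), where 3.94%, 4.16% and 4.49% of all genes were lower. Members above WT without overlap numbered 0, and 1 without scaling beyond total counts, and 0 to 1 with 1 library left out (1 without WT replicate 6 or Fmr1-/y replicate 3), beside 0.213% of all genes, and 0.286%, 0.4% and 0.513% in these 3 settings. The cause of these moves was not tested.

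The labels do not say that the replicate numbers pair the libraries, and not every pair correlated. The deviations of same-numbered libraries had a mean correlation of 0.025 over all genes (-0.081 to 0.09), 0.099 over genes with a mean log2 CPM over 1 (-0.243 to 0.348) and 0.155 over those over 5 (-0.443 to 0.599). At the last 2 levels 3 of the 6 pairs were over 0.1. The WT libraries that correlated best with their own number were 0 of 6 over all genes and 1 at each of the other levels. With the replicate block 4 genes and 0 members passed. At an unadjusted p under 0.05, 2 members were higher in that fit, beside 4.14% of all genes. The log2 fold change was then 0.27 for Slc25a18 and 0.56 for Slc25a34.

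Of 315 comparisons of the 15 members given in full with an alternative, 291 kept the direction and none crossed an adjusted p of 0.05, while 24 had the opposite sign, in members close to 0. An unadjusted p of 0.05 was crossed in 11 comparisons of 6 members (Slc25a3, Slc25a18, Slc25a23, Slc25a34, Slc25a35 and Slc25a39). With 1 library left out, the log2 fold change ran from -0.022 to 0.050 for Slc25a4, -0.062 to 0.016 for Slc25a11, -0.049 to 0.017 for Slc25a44, -0.014 to 0.082 for Slc25a46 and -0.15 to 0.012 for Slc25a53. With the astrocyte score it was -0.036 for Slc25a4, 0.092 for Slc25a44, -0.059 for Slc25a46 and 0.078 for Slc25a53. With the non-neuronal score it was 0.034 for Slc25a44 and 0.021 for Slc25a53, and without scaling 0.0060 for Slc25a44. Depth limits chiefly Slc25a2, Slc25a21, Slc25a31 and Slc25a41, which lay under 1 CPM in WT libraries.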
